A study of Mus musculus with 6 samples.

Results

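Iron handling genes were followed in RNA of mouse tracheal mesenchyme, the tissue of fibroblasts, cartilage, smooth muscle, vessels and immune cells that lies beneath the airway epithelium. The set held 10 genes: the uptake genes Scara5, Tfrc, Slc11a2 and Steap4, the storage gene Fth1, the export and ferroxidase genes Slc40a1, Cp and Heph, the phagosomal transporter Slc11a1 and the regulator Ireb2. These were 10 of the 18193 genes with a tested probe set. Members were all probe sets that the platform annotation assigned to exactly 1 of these symbols, which gave 29 of the 45101 probe sets of the array. Of these, 26 were tested and 3 were array control probe sets for Tfrc.

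The 10 genes were chosen with their log2 differences between injured and control samples on these same arrays already known. All values of that contrast are therefore a description of the members. The adjusted p-values only give a member's place in a fit of the whole array, and nothing is supported with them.

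The samples came from adult male C57Bl/6 mice. The 3 control samples were normal mesenchyme and the 3 injured samples were taken 48 h post injury (hpi), after 4 h at 500 ppm of inhaled SO2, a gas that kills the luminal cells of the airway. Each sample pooled 4 mice, and epithelium had been peeled from all 6 samples after 23 min in dispase, so both groups went through the same digestion. The spread behind every p-value is thus that between pools, and single mice were not measured. Each sample was read on 1 Affymetrix array, and a value is an expression level on the log2 scale after robust multi-array analysis (RMA). Levels of different probe sets were not compared with each other, since each has its own probes.

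The labelled tissue was checked against its markers. The mean level of 12 fibroblast markers was 10.99 to 11.19 in controls and 10.84 to 11.06 at 48 hpi. The mean of 7 chondrocyte markers separated the groups, at 11.49 to 11.79 in controls and 11.01 to 11.34 at 48 hpi (median log2 fold change -0.56), and 1 of them, Hapln1, fell. For 6 smooth muscle markers control sample 3 stood apart, at 10.66 against 11.77 and 12.18 in the other controls and 11.72 to 12.25 at 48 hpi, and none was called. The mean of 6 endothelial markers also separated the groups, at 6.97 to 7.16 in controls and 7.26 to 7.54 at 48 hpi. Their median log2 fold change was 0.39, and 2 rose, Cdh5 (0.71) and Tie1 (0.65), and 0 fell. Markers of airway epithelium were still present, with a mean over 10 genes of 7.75 to 8.59 in controls and 7.10 to 8.40 at 48 hpi. All 7 measured erythroid markers lay at or under the dim level of 6.14, a bound set from 17 measured genes listed as not expected in trachea. After the group means were removed, samples of the 2 groups that share a number in the labels deviated together, and sample 1 lay at the same end of both groups for 7 of the 10 members.

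Cells take up iron bound to transferrin through the transferrin receptor, and ferritin through receptors such as Scara5. Reductases and divalent metal transporters bring the metal into the cytosol, ferritin stores it, and ferroportin exports it with the help of copper ferroxidases. Iron regulatory proteins bind iron-responsive elements in messenger RNAs. When iron is scarce they stabilize Tfrc RNA and block translation of ferritin RNA, a step that acts on protein output rather than on RNA level. Macrophages recycle iron from the red cells they engulf and withhold it from microbes.

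By gene, each read from its brightest probe set on average, 1 member rose and 1 fell (limma, adjusted p 0.05). Over all genes 4.97% rose and 1.24% fell. Slc11a1 rose to 2.59 times its control level and Scara5 fell to 0.492 times. With the replicate number as a block the same genes were called, 1 in each direction, against 8.77% and 4.64% of all genes. In 3 members, Slc11a1, Steap4 and Heph, every 48 hpi value lay above every control, and in 1, Scara5, every value lay below. Over all genes 17.2% lay fully above and 13.1% fully below. Of the 10 log2 differences 7 were above 0 and 3 below, with a median of 0.08, and the median over all genes was -0.01. Nothing is read from these shares, since the members were chosen on the same contrast.

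**Figure D1:**
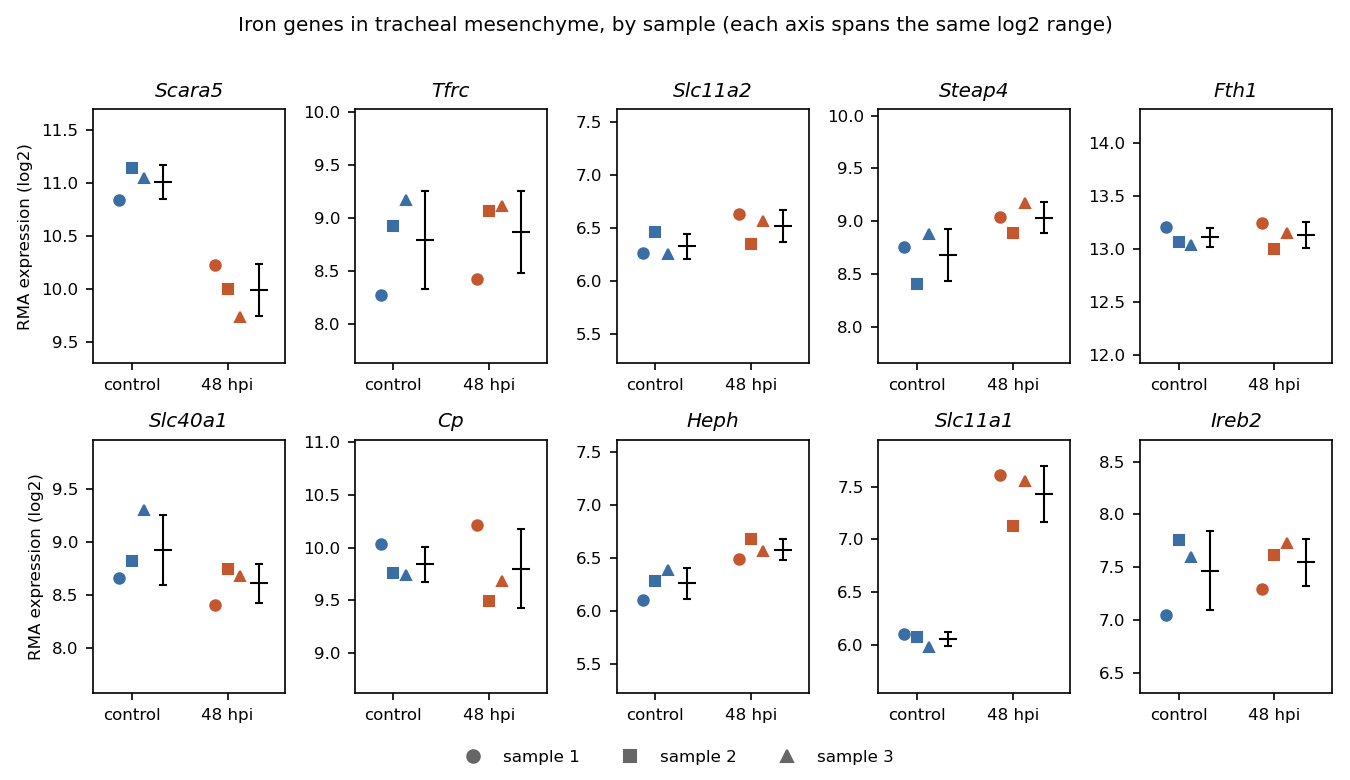
RMA expression on the log2 scale (y axes, all spanning the same range) of the 10 iron genes in control and 48 hpi samples. Circles, squares and triangles are samples 1, 2 and 3, and the bars give the mean and SD of 3 samples; Scara5 and Slc11a1 show the widest gaps between groups, and sample 1 is the lowest of both groups for Tfrc and Ireb2.

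Scara5 encodes a scavenger receptor that takes up ferritin without transferrin. Its level in controls was 10.84 in sample 1, 11.15 in sample 2 and 11.04 in sample 3, and at 48 hpi it was 10.22, 9.999 and 9.73 in the same order. Every injured sample lay below every control. The mean fell from 11.01 ± 0.16 to 9.99 ± 0.25 (SD, n = 3 each), a log2 fold change of -1.02 ± 0.15 (SE, 95% interval -1.37 to -0.68, limma adjusted p = 0.0131).

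The fall of Scara5 was smallest between the samples numbered 1, at -0.61, and was -1.15 and -1.31 between those numbered 2 and 3. With the replicate block its adjusted p was 0.00821. Leaving out 1 sample at a time, the log2 fold change ran from -1.14 to -0.90. The call was lost without control sample 2 (adjusted p = 0.0531) and without control sample 3 (adjusted p = 0.0590). The second Scara5 probe set, 1431336_at, was dim in both groups (4.91 and 4.86).

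Scara5 is expressed by fibroblasts, so the fibroblast markers are given beside it. Of 12 markers 0 rose and 1 fell, the matrix gene Dpt with a log2 fold change of -0.53, and their median log2 fold change was -0.05. Their mean was 10.99, 11.19 and 11.05 in control samples 1 to 3 and 10.94, 11.06 and 10.84 at 48 hpi. The groups overlapped, and within each number the injured sample was lower. The receptor gene Pdgfra, used to define lung and airway fibroblasts, had a log2 fold change of 0.00 in its brightest probe set. Of its 3 probe sets 1, not the brightest, rose, so they differed. Pi16, a marker of adventitial fibroblasts, had -0.88 and fell with the replicate block. The collagen gene Col1a1 went the other way, with 0.51, and rose with the block (limma adjusted p = 0.0221). Their part in the fall of Scara5 was not tested. In bulk tissue, fewer cells of a type and less RNA per cell cannot be told apart.

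The 5 genes with the pattern most like Scara5 over the 6 arrays, among 9926 genes above the dim level, were Pcmtd2 (Pearson r = 0.998), Txnip (0.996), B230217C12Rik (0.993), Scara3 (0.993) and Pcolce2 (0.993). Scara3 is another scavenger receptor of the same class, and Pcolce2 encodes an enhancer of procollagen processing. Their log2 fold changes were -0.66, -0.95, -0.38, -0.27 and -0.82 in the same order. These correlations contain the difference between the groups and carry no test.

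Slc11a1 encodes Nramp1, a divalent metal transporter of the phagosome membrane that macrophages and neutrophils express. Its level in controls was 6.11, 6.08 and 5.98 in samples 1 to 3, and at 48 hpi it was 7.61, 7.13 and 7.56. Every injured sample lay more than 1 log2 unit above every control. The mean rose from 6.06 ± 0.07 to 7.43 ± 0.26 (SD, n = 3 each), a log2 fold change of 1.37 ± 0.14 (SE, 95% interval 1.05 to 1.70, limma adjusted p = 0.00336).

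The control mean of Slc11a1 lay under the dim level of 6.14, so the gene passed that level only through the injured group, and RMA compresses folds of dim probe sets toward 0. The rise was 1.5, 1.05 and 1.57 between samples numbered 1, 2 and 3. It kept its call without any 1 of the 6 samples, with log2 fold changes of 1.28 to 1.53 and adjusted p of 0.00233 to 0.0227.

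Leukocyte markers moved with Slc11a1. Of 12 macrophage markers 9 rose and 0 fell, and their mean level went from 7.40 to 7.68 in controls to 8.67 to 8.91 at 48 hpi. The integrin gene Itgam rose by 2.88, the lysosomal glycoprotein gene Cd68 by 2.28 and the mannose receptor gene Mrc1 by 1.69 on the log2 scale. The macrophage genes Lyz2 (-0.43), Cx3cr1 (0.01) and Mertk (-0.45) were not called, though Mertk fell with the replicate block. Of 8 measured neutrophil markers 3 rose and 0 fell, with a mean level of 4.65 to 5.39 in controls and 5.95 to 6.57 at 48 hpi. That move came mostly from S100a8 (log2 fold change 4.27) and S100a9 (4.13), since the other 6 of the 8 were under the dim level in both groups, among them Csf3r (1.12, which rose), Ngp (-0.26), Camp (0.01) and Mpo (-0.14). In the injured group sample 2 was the lowest for Slc11a1 and for both marker means. The part of these cells in the rise of Slc11a1 was not tested.

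**Figure D2:**
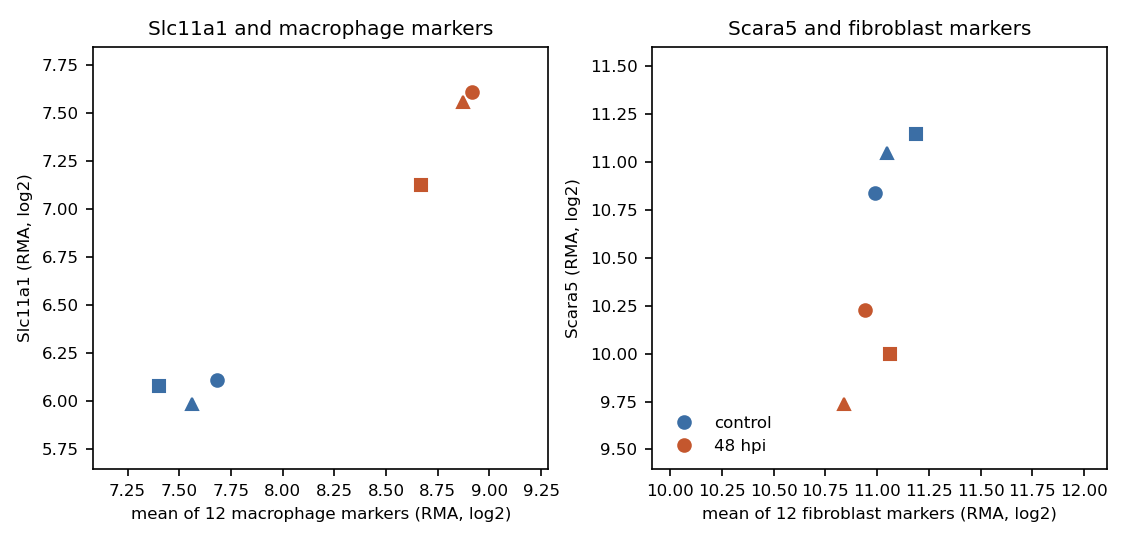
Left, Slc11a1 (y axis) against the mean of 12 macrophage markers (x axis); right, Scara5 against the mean of 12 fibroblast markers, all as RMA log2 values, with circles, squares and triangles for samples 1, 2 and 3. Slc11a1 and the macrophage mean separate the groups together. Scara5 drops from 10.84 or more to 10.22 or less. The fibroblast means overlap between groups and are lower at 48 hpi within each sample number.

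The 5 genes with the pattern most like Slc11a1 were Ahcy (r = 0.999), Mrc1 (0.999), Spi1 (0.998), Psmd1 (0.998) and Anp32b (0.998), over 6 arrays and 9926 genes. These correlations too contain the difference between the groups and carry no test. Spi1 encodes PU.1, an ets transcription factor of myeloid cells, and rose by 1.13 ± 0.13 on the log2 scale (SE). Because PU.1 is a known regulator of myeloid promoters, the promoter windows of the members were searched for its core letters GAGGAA on both strands. Windows of 300 bases, 250 before and 50 after a start site, came from RefSeq (GRCm38.p6) for 6 of the 10 members, in 9 windows. None was given for Scara5, Slc40a1, Slc11a2 and Heph. The Slc11a1 window, at chr1:74374953-74375252 on the + strand, is shown because this gene rose and holds a match, with the match in capitals:

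Slc11a1 promoter: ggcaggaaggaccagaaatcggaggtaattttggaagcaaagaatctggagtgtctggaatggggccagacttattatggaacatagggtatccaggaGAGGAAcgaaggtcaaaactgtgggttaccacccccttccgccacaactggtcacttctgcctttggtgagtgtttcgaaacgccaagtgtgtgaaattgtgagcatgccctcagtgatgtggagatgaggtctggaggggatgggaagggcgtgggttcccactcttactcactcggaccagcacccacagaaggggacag

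The match starts 152 bases before the start site. The same letters occur in 28.3% of 32851 promoter windows of this length, and among the other members 2 matches lay in the Ireb2 window, on the - strand after the start site. The core of the antioxidant response element, TGACNNNGC, was in 12.4% of all windows and in none of the 9 of the members. A match is a run of letters and not a binding site.

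Tfrc encodes the transferrin receptor, the main port of iron entry into dividing cells. Its level was 8.27, 8.92 and 9.17 in controls and 8.42, 9.07 and 9.11 at 48 hpi, in samples 1 to 3. The groups overlapped, and sample 1 was the lowest of each by 0.77 below the mean of the other controls and 0.67 below that of the other injured samples. The log2 fold change was 0.08 ± 0.27 (SE), with a 95% interval of -0.56 to 0.71 (limma adjusted p = 0.911). Between samples of the same number the differences were 0.15, 0.14 and -0.06, and the interval with the replicate block was -0.14 to 0.29.

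Markers of cell division were called in the same samples. All 9 measured division markers rose, and their mean level went from 5.01 to 5.41 in controls to 8.004 to 8.48 at 48 hpi, a median log2 fold change of 3.24. Tfrc, which dividing cells need, did not pass the test in the same comparison. The difference between Tfrc and these markers was not tested.

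Slc11a2 encodes the divalent metal transporter DMT1, which moves iron out of endosomes. Its levels were 6.27, 6.47 and 6.25 in controls and 6.64, 6.35 and 6.57 at 48 hpi, and the groups overlapped through injured sample 2. The log2 fold change was 0.19 ± 0.11 (SE, 95% interval -0.07 to 0.45, limma adjusted p = 0.415). Its 4 probe sets ran from -0.02 to 0.37. The highest, 1426441_at, had injured values above all controls but lay under the dim level in both group means.

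Steap4 encodes a metalloreductase that reduces iron and copper before transport, and it responds to inflammatory cytokines. Its levels were 8.76, 8.41 and 8.88 in controls and 9.04, 8.89 and 9.18 at 48 hpi. The lowest injured sample lay just above the highest control. Its log2 fold change was 0.35 ± 0.14 (SE, 95% interval 0.02 to 0.69), at limma adjusted p = 0.242, and 0.0519 with the replicate block. Within numbers the difference was 0.28, 0.47 and 0.30.

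Fth1 encodes the ferritin heavy chain, whose ferroxidase activity loads iron into the storage shell. Its levels were 13.21, 13.07 and 13.04 in controls and 13.24, 13.00 and 13.15 at 48 hpi, so the groups overlapped. Between groups the log2 fold change was 0.02 ± 0.10 (SE, limma adjusted p = 0.926). Its 95% interval allowed a level of 0.865 to 1.2 times the control. The second probe set, which by its suffix can match several transcripts, had a log2 fold change of 0.11. Ferritin protein, which the iron regulatory proteins control, was not measured by these arrays.

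Slc40a1 encodes ferroportin, the exporter of iron from cells. Its levels were 8.66, 8.82 and 9.30 in controls and 8.40, 8.75 and 8.68 at 48 hpi. Injured samples 2 and 3 lay within the range of the controls, and control sample 3 stood highest. Group means were 8.93 ± 0.33 (control) and 8.61 ± 0.18 (48 hpi; SD, n = 3 each), a log2 fold change of -0.32 ± 0.18 (SE, 95% interval -0.74 to 0.10, limma adjusted p = 0.394). Between samples of the same number it was -0.26, -0.07 and -0.63, all below 0, and with the replicate block the interval was -0.61 to -0.03 at adjusted p = 0.147.

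Heph encodes hephaestin, a membrane ferroxidase that works with ferroportin. Its levels were 6.11, 6.28 and 6.39 in controls and 6.49, 6.68 and 6.57 at 48 hpi. All injured values lay above all controls by a narrow margin, close to the dim level of 6.14. Its log2 fold change was 0.32 ± 0.11 (SE, 95% interval 0.07 to 0.57), at limma adjusted p = 0.157.

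Cp encodes ceruloplasmin, the soluble and membrane-anchored copper ferroxidase that oxidizes exported iron for transferrin. Its levels were 10.03, 9.76 and 9.74 in controls and 10.22, 9.50 and 9.68 at 48 hpi. The highest value of either group was that of sample 1, and the groups overlapped. The log2 fold change was -0.04 ± 0.19 (SE, 95% interval -0.49 to 0.40, limma adjusted p = 0.932).

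The array holds 8 probe sets for Cp, and they differed. All 8 log2 fold changes were below 0, from -0.66 to -0.01, and 7 of the 8 lay above the dim level. The largest fall, in 1441326_at, was from 4.51 to 3.85, under the dim level in both groups (limma adjusted p = 0.0420). Probe set 1417497_at went from 7.26 ± 0.26 to 6.78 ± 0.51 (SD, n = 3 each), a log2 fold change of -0.48 that was called with the replicate block alone (limma adjusted p = 0.0483, against 0.376 without).

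Sample 1 was the highest of its group in 7 of the 8 Cp probe sets, in controls and at 48 hpi alike. Airway epithelium is a known source of Cp, and the mean of the 10 epithelial markers was 8.59, 7.75 and 8.29 in controls and 8.40, 7.46 and 7.10 at 48 hpi, with sample 1 highest in both groups. None of the 10 epithelial markers was called, and their median log2 fold change was -0.29. Among them the secretory cell genes Scgb1a1 (-2.57) and Scgb3a2 (-2.07) fell with the replicate block only. The part of remaining epithelium in the Cp values was not tested.

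**Figure D3:**
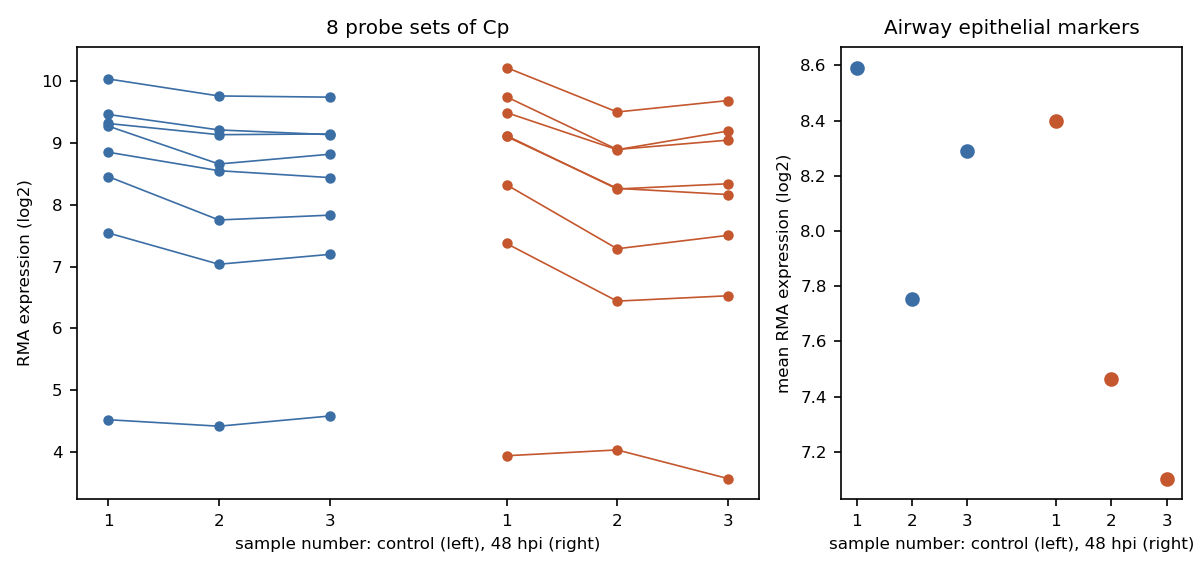
Left, RMA log2 expression (y axis) of the 8 Cp probe sets in control samples 1 to 3 (blue) and 48 hpi samples 1 to 3 (orange), each line joining the values of 1 probe set; right, the mean of 10 airway epithelial markers in the same samples. In 7 of 8 probe sets sample 1 is the highest of its group, as it is for the epithelial mean.

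Ireb2 encodes iron regulatory protein 2, whose amount is set mainly by degradation of the protein when iron is plentiful. Its levels were 7.05, 7.76 and 7.6 in controls and 7.30, 7.61 and 7.73 at 48 hpi. The groups overlapped, and sample 1 was the lowest of each, 0.63 below the mean of the other controls and 0.38 below that of the other injured samples. The log2 fold change was 0.08 ± 0.20 (SE, 95% interval -0.39 to 0.55, limma adjusted p = 0.872), and the interval with the replicate block was -0.17 to 0.33. The members with the widest spread among controls, Tfrc (SD 0.46), Ireb2 (0.37) and Slc40a1 (0.33), were all lowest in sample 1 of both groups.

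Across all 26 tested probe sets of the members 1 rose and 2 fell. Over all tested probe sets 3.49% rose and 0.846% fell. The replicate block called 1 rise and 3 falls among the members, beside 6.43% and 4.51% of all tested probe sets. There were 13 log2 fold changes above 0 and 13 below, and 18 probe sets were above the dim level in at least 1 group. The dim probe sets of Scara5, Tfrc, Steap4 and Slc40a1 had log2 fold changes between -0.06 and 0.06, whereas dim ones of Slc11a2 and Cp reached 0.37 and -0.66.

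**Figure D4:**
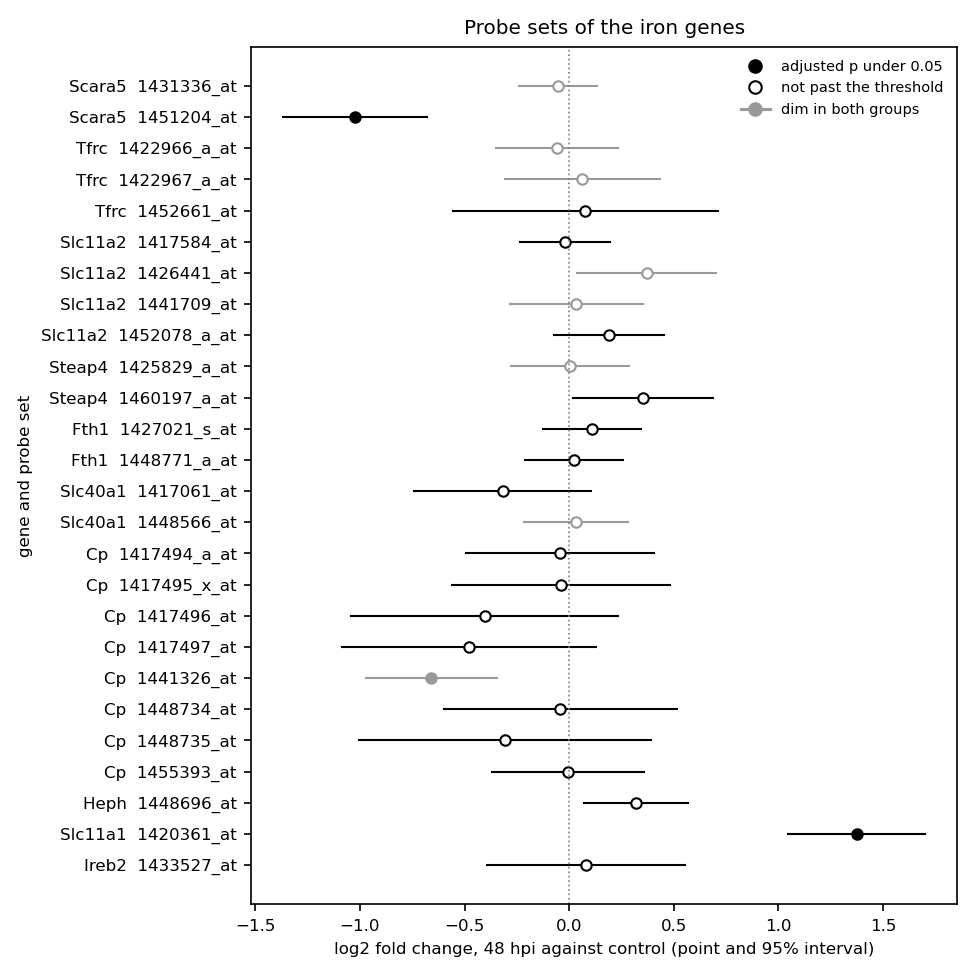
Log2 fold change at 48 hpi against control (x axis) of the 26 tested probe sets of the iron genes, with 95% intervals from limma; filled points had an adjusted p under 0.05 and grey marks probe sets with both group means under the dim level of 6.14. The 2 filled points left of 0 are Scara5 and a dim Cp probe set, and the filled point right of 0 is Slc11a1.

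The rest of the pathway was taken from a list of 65 other iron genes ordered by role, of which 59 were measured. Of these 1 rose and 2 fell, with 30 log2 fold changes above 0 and 29 below and a median of 0.00. Over all genes 4.97% rose and 1.24% fell. With the replicate block 8 rose and 5 fell, beside 8.77% and 4.64% of all genes. In 16 genes every injured value was above every control, and in 10 every injured value was below, beside 17.2% and 13.1% of all genes. The transferrin gene Trf and the ferritin light chain gene Ftl1 were not analysed here, since their probe sets carry several symbols.

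Heme, hemoglobin and siderophore genes held the 1 that rose. Haptoglobin (Hp), which binds free hemoglobin, had 8.20, 9.27 and 8.06 in controls and 10.35, 10.44 and 10.51 at 48 hpi. Control sample 2 stood about 1 log2 unit above the other controls and still below every injured sample. Hp rose by 1.92 ± 0.30 on the log2 scale (SE, limma adjusted p = 0.0175), and its call was kept in 1 of 6 fits that left out a sample, the fit without control sample 2 (adjusted p from 0.00266 to 0.0854 over the 6). Its macrophage receptor Cd163 had 1.03 ± 0.24 (adjusted p = 0.0638), heme oxygenase Hmox1 1.07 ± 0.24 (0.0600) and the siderophore binder Lcn2 1.32 ± 0.37 (0.106), and all of these were called with the replicate block (limma adjusted p of 0.0213, 0.0202 and 0.0196). Of the 16 genes in this group 7 rose and 1 fell with the block, against 1 and 0 without it. The shares over all genes with the block were 8.77% and 4.64%, and nothing particular to the group is read from its count.

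Injured sample 2 was the lowest of its group for Cd163 (7.78, against 8.83 and 8.38), Hmox1 (6.02, against 6.59 and 7.08) and Lcn2 (7.76, against 9.24 and 9.14). It was also the lowest for Slc11a1 and the macrophage mean. Without injured sample 2, 4 of the other iron genes rose. Hp, the 1 that rose with all samples, was not among them. The share of all genes that rose in that fit is not given, so nothing is read from this count.

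Among 10 measured regulators of the iron regulatory system and of systemic iron 0 rose and 2 fell. Over all genes 4.97% rose and 1.24% fell, and nothing particular to the group is read from its count. Neo1, a coreceptor for hemojuvelin, had a log2 fold change of -0.67 ± 0.10 (SE, limma adjusted p = 0.0180), and Bmp6, a ligand that drives hepcidin expression in liver, had -0.62 ± 0.13 (adjusted p = 0.0420). Each kept its call in 1 of the 6 fits that left out a sample, Neo1 without control sample 2 and Bmp6 without injured sample 1, with adjusted p from 0.0253 to 0.0872 for Neo1 and from 0.0423 to 0.144 for Bmp6. Hepcidin itself (Hamp) was dim in both groups (3.8 and 3.81). The iron regulatory protein gene Aco1 had 0.16 and Fbxl5, which marks Ireb2 protein for degradation, had -0.15, and neither was called.

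Among the 13 measured genes of uptake and the transferrin cycle 0 rose and 0 fell, beside 4.97% and 1.24% of all genes. Slc39a14, an importer of iron not bound to transferrin, had 0.55 ± 0.16 (SE, limma adjusted p = 0.108), the endosomal reductase Steap3 had 0.20, and the surface reductase Cybrd1 had -0.45 ± 0.11 (adjusted p = 0.0738), which fell with the block. Of the 5 measured storage and turnover genes none was called, and Ncoa4, the receptor that sends ferritin to lysosomes, had 0.41 ± 0.13 (adjusted p = 0.141). Of 13 measured genes of mitochondrial iron and heme synthesis none was called without the block and 1 rose with it. With the block 8.77% of all genes rose. Neither of the 2 export partners was called.

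**Figure D5:**
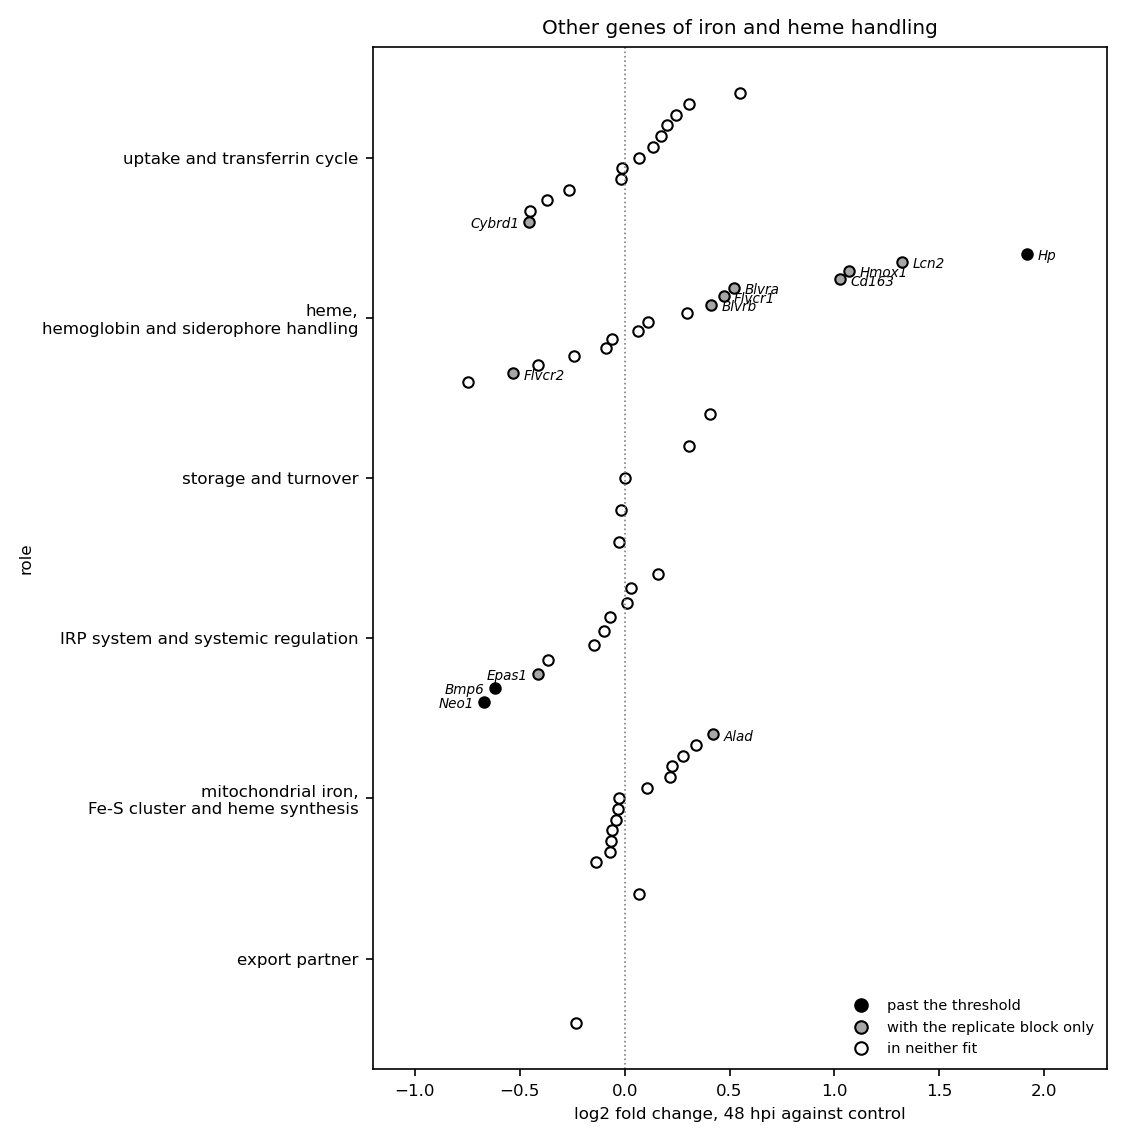
Log2 fold change at 48 hpi against control (x axis) of the 59 other iron genes, grouped by role (y axis, ordered by value within a role). Black points passed the threshold (Hp, Neo1 and Bmp6), grey points passed only with the replicate block, and the grey points right of 0 lie mostly among the heme, hemoglobin and siderophore genes.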

How the data were processed

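RNA of 3 control and 3 injured (48 hpi) mesenchyme samples was amplified and hybridized by the authors to 1 Affymetrix mouse genome array each. The deposited values are log2 expression per probe set after RMA, which corrects background, quantile normalizes and summarizes probes. Tools listed in the submitters' processing notes are Affymetrix Expression Console 1.1, Partek 6.5 and RMA. Quantile normalization sets all arrays to 1 distribution, which hides any shift common to most genes. For arrays, their number limits the precision.

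Of 45101 probe sets, 64 controls were left out and 45037 tested. The platform annotation gave 1 symbol to 34945, several to 932 and none to 9160; 34754 single-symbol probe sets matched RefSeq (GRCm38.p6) by Entrez identifier, used for names. A gene was read from the probe set whose mean over 6 arrays was highest. The dim level was the 90th percentile of the 6-array means of 31 probe sets of 17 genes listed as not expected in trachea. Of these genes 13 lay under the level in both groups. Cyp2e1 stood far above it, at 9.865 in controls and 9.66 at 48 hpi, so the list was not silent throughout in this tissue.

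The test was limma (3.58.1, R 4.3.3), with lmFit, eBayes and group as its factor, two-sided, Benjamini-Hochberg over 45037 probe sets, threshold 0.05, with 4 residual degrees of freedom plus 3.21 from the shared spread. Every adjusted p in the text is from limma unless the methods' ANOVA is named. The fit was also run on simulated arrays with known changes, drawn as independent normal values. These lacked the deviations shared by same-numbered samples, so that run cannot speak for the pairing in these data. Samples were grouped by their labels. Same-numbered samples deviated together (correlations of deviations 0.62, 0.36 and 0.34), a pairing that comes from the data and not the labels. Control 3 with injured 2 (0.18) and control 2 with injured 3 (0.11) were also positive, so the pairing was clearest for sample 1. The fit with replicate number as a block has 2 residual degrees of freedom. Members, other iron genes and markers were chosen with earlier results of these data known. The named genes were all members, the other iron genes past the threshold, 14 iron genes by name, and 5 genes most like Scara5 and 5 most like Slc11a1; marker genes and block-only calls were named once their values were known. Of 102 listed markers 94 were measured. Alternatives were array weights, a mean-variance trend, median centring, repeated quantile normalization, leaving out dim probe sets, the mean of a gene's probe sets, the block, the methods' ANOVA, each sample left out and both samples numbered 1 left out.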

Additional observations from a re-analysis of the deposited data

How the results depend on the processing

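With the replicate block no member gene's call changed. Slc11a2, Slc40a1 and Steap4 kept direction and side of the threshold under all 16 alternatives, Slc11a1 and Heph under 15 and Scara5 under 13. Heph crossed the threshold only in the methods' ANOVA without adjustment. The log2 difference of Fth1 turned to -8.33e-06 with quantile normalization repeated, and that of Ireb2 to -0.0061 without both samples numbered 1. Leaving out 1 sample at a time, differences ran from -0.25 to 0.11 for Cp, -0.033 to 0.090 for Fth1, -0.13 to 0.22 for Ireb2 and -0.18 to 0.30 for Tfrc. In those fits 0 to 1 member genes fell and 1 rose, 0 to 1 member probe sets fell and 1 rose, and among other iron genes 0 to 2 fell and 0 to 4 rose. With the methods' ANOVA, run here on injury alone, no member gene, member probe set or other iron gene was called after Benjamini-Hochberg (0 each way). Without adjustment 2 member genes rose and 1 fell, and 2 member probe sets rose and 2 fell. Among other iron genes 13 rose and 5 fell. In the limma fit with group alone 2 member probe sets fell. Only 1 was called with arrays centred, dim probe sets left out, quantile normalization repeated or both samples numbered 1 left out. Other iron genes numbered 2 rises and 1 fall with arrays centred, 6 and 4 without dim probe sets and 8 and 5 with the block. They numbered 0 and 0 without both samples numbered 1, and 6 and 2 with the mean of all probe sets. None rose without control samples 1 or 3 or injured samples 1 or 3, and none fell without control samples 1 or 3 or injured samples 2 or 3. Shares over all genes are given only for the limma test and its block version, so nothing is read from counts under other alternatives. The causes were not tested. With 3 arrays a group, the 95% intervals of Heph and Steap4 excluded 0 while their adjusted p did not pass.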

Other observations

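The 3 array control probe sets for Tfrc, which target parts of the transcript and were not tested, had group means of 2.85 to 3.33, under the dim level of 6.14, whereas the tested probe set 1452661_at of the same gene stood at 8.79 in controls and 8.86 at 48 hpi. The tested Tfrc probe sets 1422966_a_at (4.39 and 4.33) and 1422967_a_at (3.10 and 3.16) were dim as well.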
